A study of Branchiostoma lanceolatum with 24 samples.

Results

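A set of 22 transcriptome contigs was lower in amphioxus embryos exposed early to SU5402 and close to the control level in embryos exposed late. Embryos were the European amphioxus Branchiostoma lanceolatum, a cephalochordate, and each library came from a mix of whole embryos. SU5402 embryos were kept in sea water with 50 µM SU5402 and DMSO embryos, the controls, in sea water with 0.1% DMSO. In the early series both began at 5 hours post fertilisation (hpf), and embryos were collected after 3, 6 and 9 h, at 8, 11 and 14 hpf. In the late series both began at 15.5 hpf, and embryos were collected after the same exposures, at 18.5, 21.5 and 24.5 hpf. Each of the 12 groups had 2 libraries.

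The 22 contigs were chosen on the measured counts of a table of 96094 contigs, as reads per 1000000 reads of the library (CPM). In each early pair of groups, the higher SU5402 library had to be at or below 0.67 times the lower DMSO library, with a mean DMSO level of at least 5 CPM. In each late pair the ratio of mean SU5402 to mean DMSO CPM had to lie from 0.75 to about 1.3, with a mean DMSO level of at least 2 CPM. The level floors alone were met by 12000 contigs, and 105 of these also met the early condition. Of the 105, 22 lay within the late window at all 3 times, 20 lay below it at all 3 times, and 0 lay above it at all 3 times. At late 3, 6 and 9 h, 49, 59 and 40 of the 105 were below the window and 1, 3 and 6 above it. The SU5402 to DMSO differences below are therefore what chose the contigs and are given as descriptions. The choice did not compare collection times, and changes over time are given with a test. They come from the same libraries as the choice, so these tests are not fully independent of it.

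SU5402 inhibits the kinase activity of fibroblast growth factor (FGF) receptors, and it can also block other receptor tyrosine kinases such as VEGF receptors. FGF ligands bind these receptors at the cell surface, and the kinase passes the signal on through the Ras and ERK cascade to transcription factors in the nucleus. In amphioxus, FGF signalling is known for its part in forming the anterior somites, the segmented blocks that give rise to muscle. The table pairs no contig with a gene name, and 0 of its identifiers matched the RefSeq gene table for the species, so what the 22 contigs encode is not described here. Contigs are stretches of transcript put together from reads, and several can come from 1 gene. A lower level in whole embryos can mean fewer cells of a type or less RNA per cell, which cannot be told apart.

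Library totals ran from 10866511 to 39988564 reads, and the 8 libraries of 6 h exposure were the shallowest, at 10866511 to 18924324. The contigs described here had 54 reads or more in each early library and 77 or more in each late library. Replicates lay farther apart in the early series, with a biological coefficient of variation of 27.2%, than in the late series, with 6.83%. In the 5 early groups other than SU5402 at 14 hpf, the difference between replicate 1 and replicate 2 ran the same way across contigs, while it ran the opposite way in SU5402 at 14 hpf. The 2 libraries of that group thus stand apart by their numbers, and whether these numbers are swapped relative to the other early groups was not tested. The fit behind the 27.2% took no account of replicate number, so that spread includes differences shared by number. Some calls change without 1 library of SU5402 at 14 hpf, and values without either one are given for only some results.

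The most abundant of the 22 in early DMSO embryos was ContigAmph14255, which held 47.9% to 60.6% of the set's reads in the early libraries. At 8 hpf it had 1034 and 1131 CPM in SU5402 embryos, against 1797 and 1809 CPM in DMSO embryos. At 11 hpf it had 1385 and 1675 CPM in SU5402 embryos, against 3365 and 3440 CPM in DMSO embryos. At 14 hpf it had 2216 and 2083 CPM in SU5402 embryos, against 4042 and 4577 CPM in DMSO embryos. The SU5402 libraries thus stood below the DMSO libraries at each time, at 0.6, 0.45 and 0.499 of the mean DMSO level, and in both kinds of embryos the level was higher at each later time. In the late series the 2 groups lay much closer. At 18.5 hpf it had 2146 and 2113 CPM in SU5402 embryos, against 2273 and 2367 CPM in DMSO embryos. At 21.5 hpf it had 1661 and 1686 CPM in SU5402 embryos, against 2156 and 2067 CPM in DMSO embryos. At 24.5 hpf it had 1293 and 1473 CPM in SU5402 embryos, against 1588 and 1768 CPM in DMSO embryos. The late libraries did not overlap between groups either, and the ratios were 0.918, 0.792 and 0.824.

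**Figure D1:**
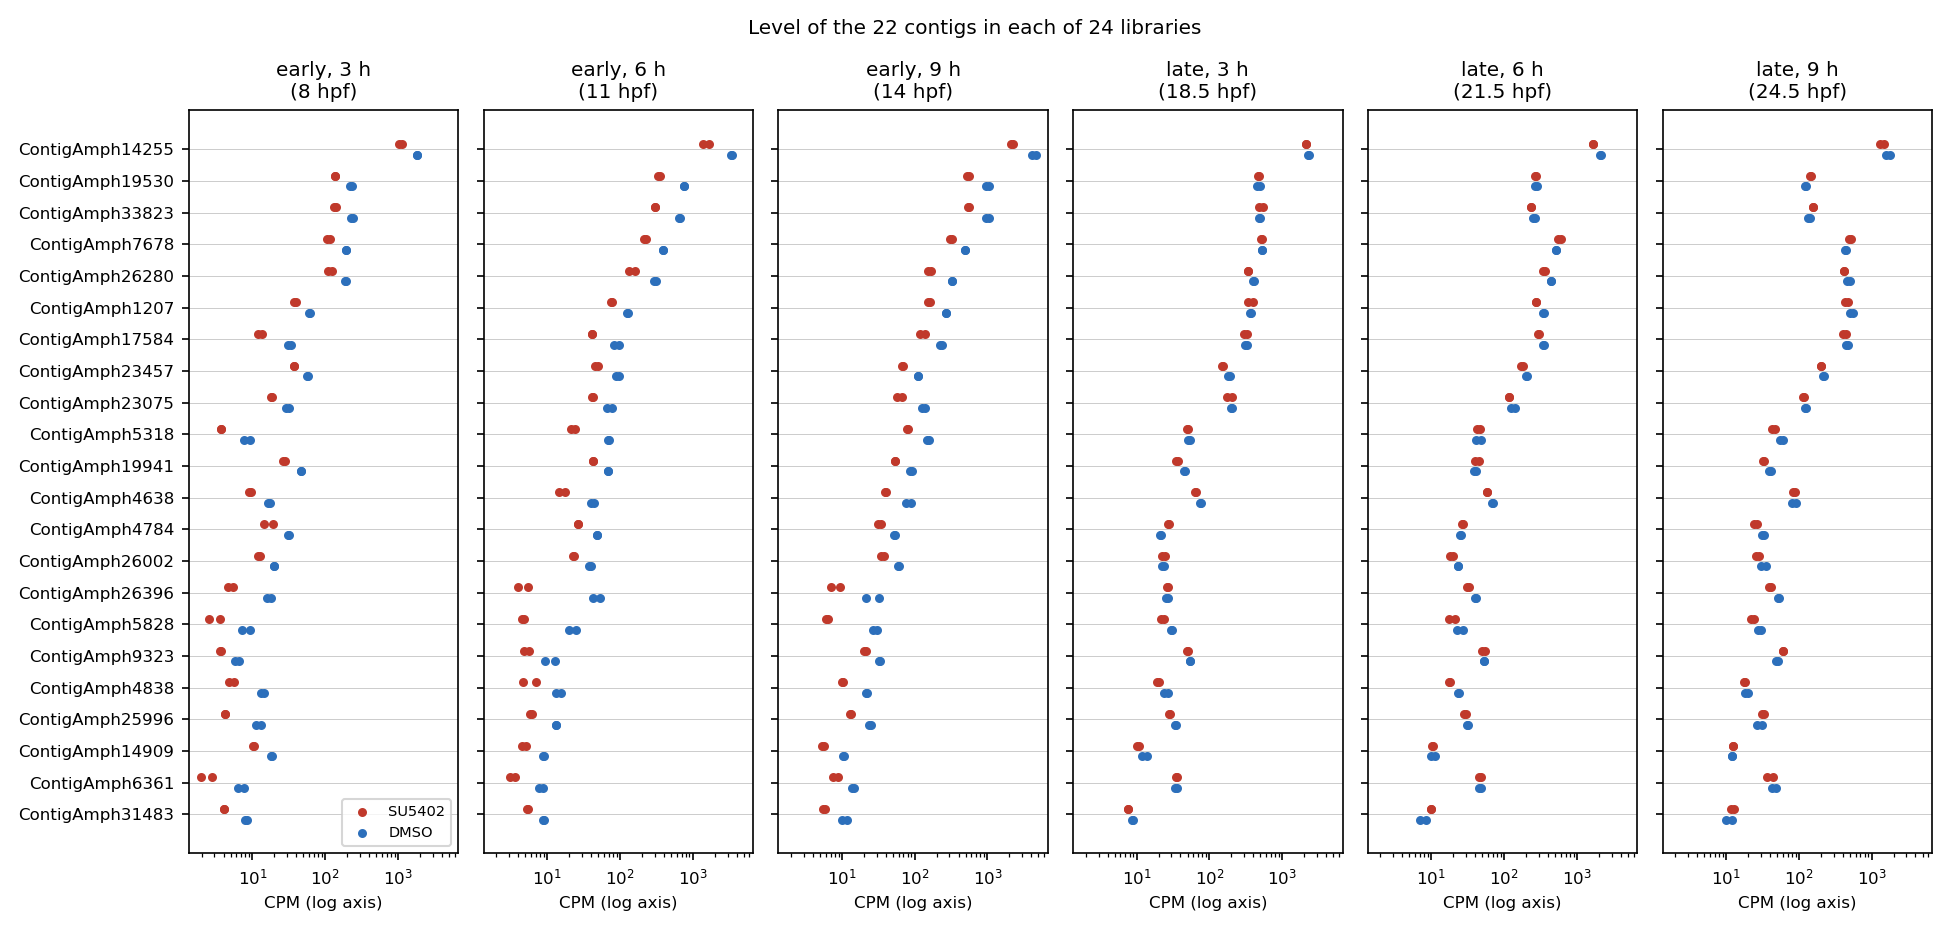
Level of the 22 contigs (rows, ordered by early DMSO level) in each of 24 libraries, in CPM on a log axis, with 1 panel for each series and exposure and 1 point for each library, SU5402 above DMSO in each row. The early SU5402 points lie left of the DMSO points in all 22 rows, as the choice of contigs required, and the late points lie close together.

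Over the 22 contigs, the ratio of mean SU5402 to mean DMSO CPM had a median of 0.572 after 3 h, 0.469 after 6 h and 0.542 after 9 h of early exposure. Ratios ran between 0.298 and 0.654 at the first time, between 0.099 and 0.626 at the next, and between 0.219 and 0.649 at the last. The ratio was at or below 0.5 in 8, 13 and 7 of the 22 at the 3 times. Both SU5402 libraries lay below both DMSO libraries in all 22, as the choice required, where 52.2%, 45.1% and 38.1% of the 12000 contigs at the level floors did so. All 22 passed the filter on low counts in both series. In the edgeR fit of the 12 early libraries, all 22 were called lower at each time, as the choice of contigs makes likely, where 34.4%, 29.9% and 19.9% of those 12000 were called lower, and 8.72%, 8.94% and 7.24% of all 77193 contigs tested. None of the 22 was called higher, where 2.77%, 5.2% and 8.07% of the 12000 were, and 8.34%, 13.9% and 13.1% of all contigs tested. These shares come from a fit without regard to replicate number. The 12000 contigs as a whole were shifted the same way, with a median SU5402 to DMSO ratio of 0.829, 0.882 and 0.954. Their floors were set on DMSO levels alone, which leaves out contigs abundant only in SU5402 embryos. Over all contigs tested, scaled by library totals, the median log2 fold change was 0.1, 0.18 and 0.13. The size of the reduction in the 22 depends on the scaling. With scaling factors taken from the 12000 contigs, the median log2 fold change of the 22 was -0.55, -0.93 and -0.85, against -0.91, -1.21 and -1.02 with the factors from all contigs. That scaling moved the median over all contigs tested from 0.002, 0.06 and -0.004 to 0.36, 0.34 and 0.16. Under it 6 contigs in place of 22 met the condition for the set.

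ContigAmph26396 had the lowest ratio at 3 and 6 h and the next to lowest at 9 h. It had 4.58 and 5.45 CPM in SU5402 embryos, against 15.9 and 17.8 CPM in DMSO embryos at 8 hpf. At 11 hpf there were 4.02 and 5.37 CPM in SU5402 embryos, against 42.1 and 52.8 CPM in DMSO embryos, a ratio of 0.099, the lowest of the set. Within the early series its DMSO level was highest at 11 hpf, and the SU5402 libraries showed no such peak. The libraries of 11 hpf were shallow ones of 6 h exposure, and the part of this in the level was not tested. By 14 hpf it had 9.39 and 7.1 CPM in SU5402 embryos, against 21.5 and 32 CPM in DMSO embryos, with the DMSO libraries far apart but still above both SU5402 libraries. During late exposure it stood at 26.7 and 25.8 CPM in SU5402 embryos, against 25.6 and 26.7 CPM in DMSO embryos at 18.5 hpf, where the groups overlapped. At 24.5 hpf it had 42 and 39.3 CPM in SU5402 embryos, against 51.7 and 53.8 CPM in DMSO embryos, without overlap.

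The ratio of ContigAmph5828 was also far below the rest after 6 and 9 h. It had 3.6 and 2.52 CPM in SU5402 embryos, against 9.32 and 7.15 CPM in DMSO embryos at 8 hpf, then 4.44 and 4.84 CPM in SU5402 embryos, against 25 and 19.9 CPM in DMSO embryos at 11 hpf, and 6.34 and 6.1 CPM in SU5402 embryos, against 30.2 and 26.5 CPM in DMSO embryos at 14 hpf. Both kinds of embryos had more of it at 14 than at 8 hpf, but the early SU5402 libraries stayed at or below 6.34 CPM, and the ratio was 0.372, 0.207 and 0.219. In the late series it had 23.7 and 21.9 CPM in SU5402 embryos, against 29.3 and 30.9 CPM in DMSO embryos at 18.5 hpf. Its late ratios of 0.758, 0.775 and 0.801 lie near the lower edge of the window, and in the edgeR fit of the 12 late libraries it fell at all 3 late times.

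ContigAmph6361 had the next to lowest ratio at 3 h, with 1.98 and 2.79 CPM in SU5402 embryos, against 6.43 and 7.72 CPM in DMSO embryos at 8 hpf. The gap was smaller at 14 hpf, where it had 8.85 and 7.66 CPM in SU5402 embryos, against 13.9 and 14.5 CPM in DMSO embryos. Its ratio went through 0.337, 0.401 and 0.581 over the 3 early times, the largest relative gain of the set. ContigAmph25996 followed, with ratios of 0.346, 0.45 and 0.543. At 8 hpf this contig had 4.15 and 4.21 CPM in SU5402 embryos, against 12.9 and 11.2 CPM in DMSO embryos, and at 14 hpf 13.4 and 13.1 CPM in SU5402 embryos, against 24.9 and 23.8 CPM in DMSO embryos. At the other end, the ratio dropped most between 3 and 9 h for ContigAmph5828 and ContigAmph23075. ContigAmph23075 had 18.8 and 17.9 CPM in SU5402 embryos, against 32.1 and 28.9 CPM in DMSO embryos at 8 hpf and 67 and 57.7 CPM in SU5402 embryos, against 125 and 140 CPM in DMSO embryos at 14 hpf, ratios of 0.602 and 0.471. Over the set 11 ratios were lower and 11 higher at 9 h than at 3 h, and this split depends on the scaling. With factors from the 12000 contigs, the log2 fold change was lower at 9 h in 17 and higher in 5. The ratio was lowest at 3 h in 7 contigs, at 6 h in 11 and at 9 h in 4. The libraries of 6 h exposure were also the shallowest and, per the labels' protocols, were amplified with more PCR cycles, in both arms, and the part of this in the ratios was not tested.

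**Figure D2:**
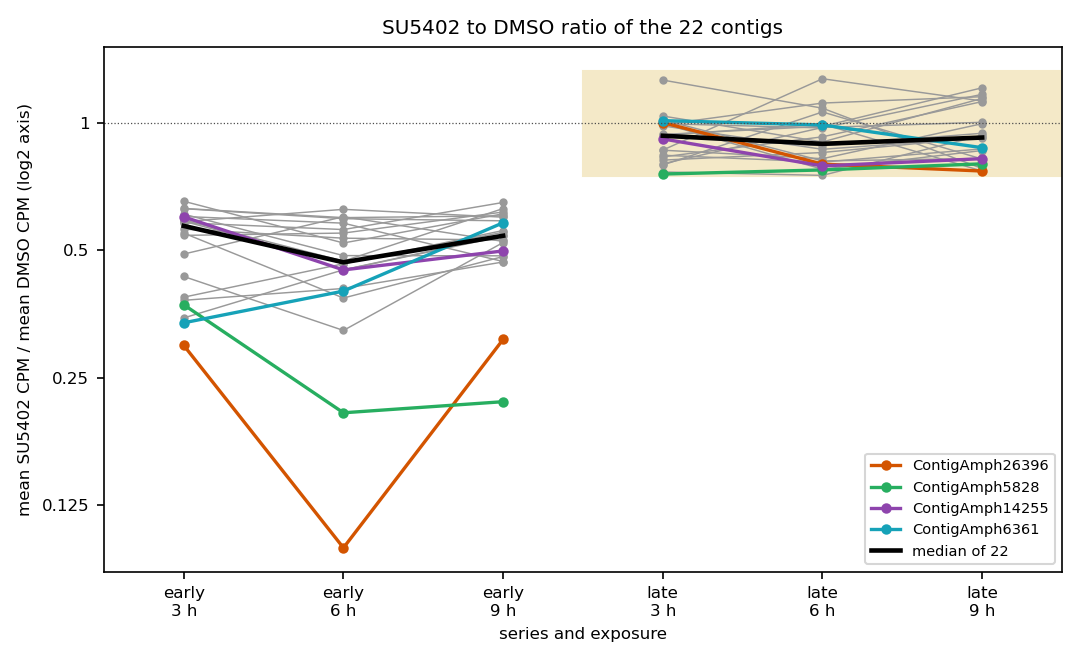
Ratio of mean SU5402 to mean DMSO CPM (log2 axis) of the 22 contigs in the 6 comparisons, 1 line per contig in each series, with the median in black and the late window of 0.75 to about 1.3 shaded. ContigAmph26396 reaches 0.099 and ContigAmph5828 0.207 after 6 h of early exposure, and the other contigs lie between 0.323 and 0.626 at that time.

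At the edge of the choice, ContigAmph9323 and ContigAmph7678 passed with a higher SU5402 library at 0.667 and 0.666 times the lower DMSO library at 14 hpf. Just outside were ContigAmph22978, at 0.67001 after 3 h, and ContigAmph7275, at 0.671 after 9 h. A ceiling of 0.5 would have left 1 contig and one of 0.8 would have taken 205. For ContigAmph7678 the values at 14 hpf were 309 and 324 CPM in SU5402 embryos, against 486 and 488 CPM in DMSO embryos. For ContigAmph9323 they were 21.5 and 20 CPM in SU5402 embryos, against 33.8 and 32.3 CPM in DMSO embryos.

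Late exposure left the set near the control level by the width of the window, but not without differences. The median ratio was 0.934 after 3 h, 0.894 after 6 h and 0.925 after 9 h, against 0.969, 1.01 and 1.04 over the 12000 contigs at the level floors. Ratios were below 1 in 17, 18 and 15 of the 22 contigs. The edgeR fit of the 12 late libraries called 8, 12 and 11 of the 22 lower and 1, 0 and 3 higher at 3, 6 and 9 h. Among the 12000 contigs, 29.4%, 25% and 19.3% were called lower and 15.5%, 14.7% and 17.7% higher. Of all 73087 contigs tested in the late series, 14%, 10.6% and 11.2% were called lower and 16.4%, 11% and 11.7% higher. Of the 105 contigs that met the early condition, 76, 79 and 74 were called lower and 3, 5 and 10 higher. The choice of the 22 used their late ratios, so the calls on the 22 are descriptions. It also bounds the late differences of the 22, none of which exceeded 0.48 in size on the log2 scale. In all, 18 of the 22 fell in at least 1 late comparison, where 43% of the 12000 and 23% of all contigs tested did so. These counts are not firm. A single fit of all 24 libraries called 3, 6 and 4 of the 22 lower and 0 higher at 3 and 9 h. The 3 higher calls at 9 h were also fewer under other settings, as the Wald test of DESeq2 made 0, scaling by DESeq2 size factors made 1, and leaving out any 1 of the 4 libraries compared left 0 or 1. Without SU5402 replicate 1 at 24.5 hpf, 6 contigs in place of 11 were called lower at 9 h.

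A group of 3 contigs, singled out after their values were seen, fell at all late times, where 8.98% of the 12000 and 3.57% of all contigs tested did so. ContigAmph26280 had 337 and 335 CPM in SU5402 embryos, against 394 and 405 CPM in DMSO embryos at 18.5 hpf, 344 and 360 CPM in SU5402 embryos, against 437 and 433 CPM in DMSO embryos at 21.5 hpf, and 420 and 419 CPM in SU5402 embryos, against 462 and 503 CPM in DMSO embryos at 24.5 hpf. The groups did not overlap at any of these times. The others were ContigAmph5828, described above, and ContigAmph23457, with late ratios of 0.818, 0.853 and 0.926. ContigAmph31483 passed the test in no late comparison, with late ratios of 0.864, 1.27 and 1.13. Both SU5402 libraries lay below both DMSO libraries in 12, 13 and 11 of the 22 contigs at the 3 late times, where 42.5%, 36.1% and 28% of the 12000 contigs did so. They lay above in 1, 3 and 6, where 29.7%, 38.2% and 42.1% of the 12000 did so.

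Most of the 22 contigs rose in control embryos over the hours of the early exposure. From 8 to 14 hpf in DMSO embryos, 18 of the 22 rose, 1 fell and 3 did not pass the test (edgeR quasi-likelihood test, adjusted p under 0.05). Of the 12000 contigs at the level floors, 29.8% rose and 31% fell, and of all 77193 contigs tested 20.6% rose and 20.3% fell. The median log2 fold change was 1.14 for the 22 and -0.04 for the 12000. The labels do not say whether replicates came from separate cultures, so p-values measure the spread between libraries, which may be technical. Of the 83 contigs that met the early condition but lay outside the late window at 1 or more times, 60 rose and 8 fell, with a median of 1.59. The 20 below the window at all late times had 12 rises and 4 falls, with a median of 1.86. Among 16 contigs chosen by the mirror rule, lowered in the late series and within the window in the early one, 4 rose and 3 fell, with a median of 0.06.

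ContigAmph5318 rose most, and it and ContigAmph33823 had the smallest p of the rises. It had 9.29 and 7.72 CPM in DMSO embryos at 8 hpf, 70.3 and 68.8 CPM at 11 hpf and 158 and 150 CPM at 14 hpf (a log2 fold change of 4.01 with an SE of 0.15, adjusted p = 3.6e-08). ContigAmph33823 had 242 and 227, then 658 and 639, then 954 and 1044 CPM over the same times (a log2 fold change of 1.93 with an SE of 0.09, adjusted p = 1.5e-07). The only contig of the set that fell was ContigAmph14909, with 18.2 and 18.6 CPM at 8 hpf, 8.82 and 9.03 CPM at 11 hpf and 10.8 and 10.2 CPM at 14 hpf (a log2 fold change of -0.98 with an SE of 0.15, adjusted p = 0.00041). The contigs that did not pass were ContigAmph4838, named after its values were seen, ContigAmph26396 and ContigAmph31483, with adjusted p = 0.052, 0.079 and 0.31. In the contigs that passed and are given above, replicates lay closer to each other than the first and last times did.

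Most of the 22 also rose in the presence of SU5402, from a lower level. Between 8 and 14 hpf in SU5402 embryos, again 18 of the 22 rose, 1 fell and 3 did not pass, with a median log2 fold change of 1.3, against 0.15 over the 12000 contigs. Of those 12000, 37.2% rose and 26.6% fell, and of all contigs tested 23.2% rose and 19.5% fell. The rise was not particular to the 22. Of the 83 contigs outside the late window at 1 or more times, 61 rose and 10 fell, with a median of 1.37. The 20 below the window at all late times had 13 rises and 6 falls, with a median of 1.46. Among the 16 contigs of the mirror rule 3 rose and 2 fell, with a median of 0.11. Of the 22 contigs, 17 rose in both kinds of embryos, where 25.5% of the 12000 and 15.2% of all contigs tested did so. ContigAmph5318 had 3.68 and 3.7 CPM in SU5402 embryos at 8 hpf, 21.1 and 23.9 CPM at 11 hpf and 78.4 and 82.1 CPM at 14 hpf (a log2 fold change of 4.25 with an SE of 0.15, adjusted p = 4.6e-08). ContigAmph17584 had 11.8 and 13.3, then 41.5 and 41.8, then 118 and 137 CPM (a log2 fold change of 3.15 with an SE of 0.15, adjusted p = 1.6e-07), where DMSO embryos had 33.8 and 31, then 96.8 and 82.4, then 237 and 221 CPM. ContigAmph14909 fell here too (a log2 fold change of -1.10 with an SE of 0.15, adjusted p = 0.00021). Its SU5402 values of 10.3 and 10.4, then 4.44 and 5.11, then 5.38 and 5.7 CPM ran parallel to the DMSO values at a lower level.

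**Figure D3:**
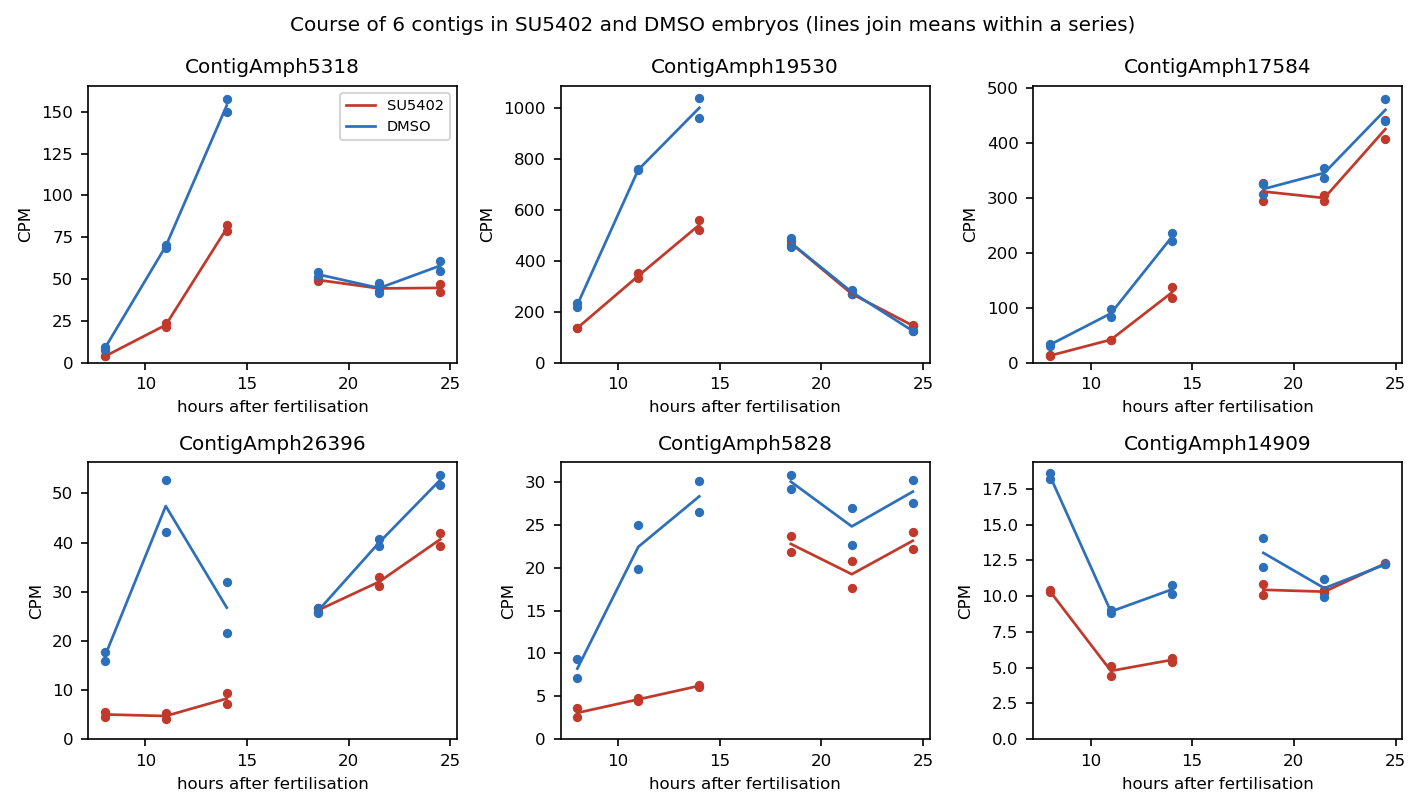
Level of 6 contigs in CPM against hours after fertilisation, with 1 point per library and lines through the means of each group within a series. In the first 3 panels SU5402 embryos gain the contig below the DMSO line between 8 and 14 hpf and lie closer to it in the late series. ContigAmph5828 stays between 2.52 and 6.34 CPM in early SU5402 libraries.

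Levels in SU5402 embryos were also set beside DMSO embryos of the collection before, as a description, and a delay was not tested. At 14 hpf the SU5402 level was a median of 0.798 times the DMSO level at 11 hpf, with a range of 0.174 for ContigAmph26396 to 1.88 for ContigAmph9323. In 15 of the 22 contigs both SU5402 libraries at 14 hpf lay below both DMSO libraries at 11 hpf, in 4 they lay above, and in 3 they overlapped. For the 12000 contigs the median was 0.934, with 39.8% below and 28.7% above. At 11 hpf, SU5402 embryos stood at a median of 0.85 times the DMSO level at 8 hpf. Of the 22 contigs 13 lay below, 8 above and 1 overlapped. For the 12000 that median was 1.004, with 35.4% below and 36.7% above. These ratios are of CPM without scaling factors and set libraries of 6 h exposure beside those of 3 or 9 h. The part of scaling, depth and PCR cycles in them was not tested. The 22 contigs were chosen for low SU5402 and high DMSO values in these libraries, so these counts are no independent result.

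After 14 hpf the DMSO courses of the 22 contigs went both ways, as did those of the 12000 contigs at the level floors. The highest DMSO mean CPM of the 6 collections, without scaling factors, was at 14 hpf for 7 contigs and at 18.5 hpf for 6. It was at 24.5 hpf for 7, at 8 and 21.5 hpf for 1 each and at 11 hpf for 0. Among the 12000 contigs the highest mean was at 8 hpf for 26%, at 11 hpf for 22.3% and at 14 hpf for 14.2%. It was at 18.5 hpf for 12.3%, at 21.5 hpf for 10.8% and at 24.5 hpf for 14.4%. The lowest mean was at 8 hpf for 15 of the 22, and for 34.7% of the 12000. The time of the highest or lowest mean was not tested under other scalings. Across the 2 series, from 14 to 18.5 hpf, both DMSO libraries were higher at 18.5 hpf in 11 contigs and lower in 9, with 38.9% of the 12000 higher and 41.9% lower. Both directions were thus common among the 12000 too, and the split is not particular to the 22. This step is on CPM without scaling factors and joins groups that differ in the start and length of DMSO exposure. The part of these in the split was not tested.

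Between 18.5 and 24.5 hpf in DMSO embryos, 7 of the 22 rose, 8 fell and 7 did not pass the test in the fit of the 12 late libraries. Of the 12000 contigs 15.4% rose and 42.5% fell, and of all contigs tested 17.5% rose and 16% fell. The falls with the smallest p were those of ContigAmph19530 and ContigAmph33823. ContigAmph19530 had 454 and 489 CPM at 18.5 hpf, 286 and 268 CPM at 21.5 hpf and 123 and 126 CPM at 24.5 hpf (a log2 fold change of -2.02 with an SE of 0.061, adjusted p = 7.8e-20). ContigAmph33823 had 481 and 497, then 266 and 247, then 142 and 133 CPM (a log2 fold change of -1.92 with an SE of 0.067, adjusted p = 2e-18). Upward, ContigAmph26396 had 25.6 and 26.7 CPM at 18.5 hpf, 39.3 and 40.8 CPM at 21.5 hpf and 51.7 and 53.8 CPM at 24.5 hpf (a log2 fold change of 0.92 with an SE of 0.077, adjusted p = 2e-10). ContigAmph17584, the rise with the next smallest p, followed (a log2 fold change of 0.45 with an SE of 0.066, adjusted p = 3.8e-06).

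In late SU5402 embryos the counts were close to those in DMSO embryos. From 18.5 to 24.5 hpf, 7 of the 22 rose, 9 fell and 6 did not pass, where 18% of the 12000 contigs rose and 33% fell, and 15.8% and 17.2% of all contigs tested. The same direction was called in SU5402 and in DMSO embryos for 11 contigs and opposite directions for 1. Among the 12000 the shares were 29.1% and 5.05%, and among all contigs tested 15.4% and 2.44%. The contig with opposite calls was ContigAmph4784, named after its values were seen. It had 26.5 and 27.4 CPM in SU5402 embryos at 18.5 hpf and 24.2 and 26.5 CPM at 24.5 hpf, where DMSO embryos had 20.9 and 21.8 CPM and 33.5 and 31.4 CPM. Its fall in SU5402 embryos lay at the threshold (a log2 fold change of -0.21 with an SE of 0.084, adjusted p = 0.05 after rounding). Its rise in DMSO embryos was clearer (a log2 fold change of 0.51 with an SE of 0.083, adjusted p = 1.8e-05). ContigAmph19530 had 463 and 477 CPM in SU5402 embryos at 18.5 hpf, 272 and 269 CPM at 21.5 hpf and 149 and 142 CPM at 24.5 hpf (a log2 fold change of -1.82 with an SE of 0.06, adjusted p = 1e-18), and ContigAmph33823 fell alike (a log2 fold change of -1.81 with an SE of 0.067, adjusted p = 8.7e-18). ContigAmph26396 rose (a log2 fold change of 0.51 with an SE of 0.078, adjusted p = 1e-05), as did ContigAmph31483, with 7.62 and 7.61, then 10 and 9.84, then 11.9 and 13 CPM (a log2 fold change of 0.58 with an SE of 0.12, adjusted p = 0.00032). The count of 9 falls is not firm, since library totals, scaling on the 12000 contigs and the fit of all 24 libraries each gave 4, and leaving out SU5402 replicate 1 at 24.5 hpf gave 5.

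**Figure D4:**
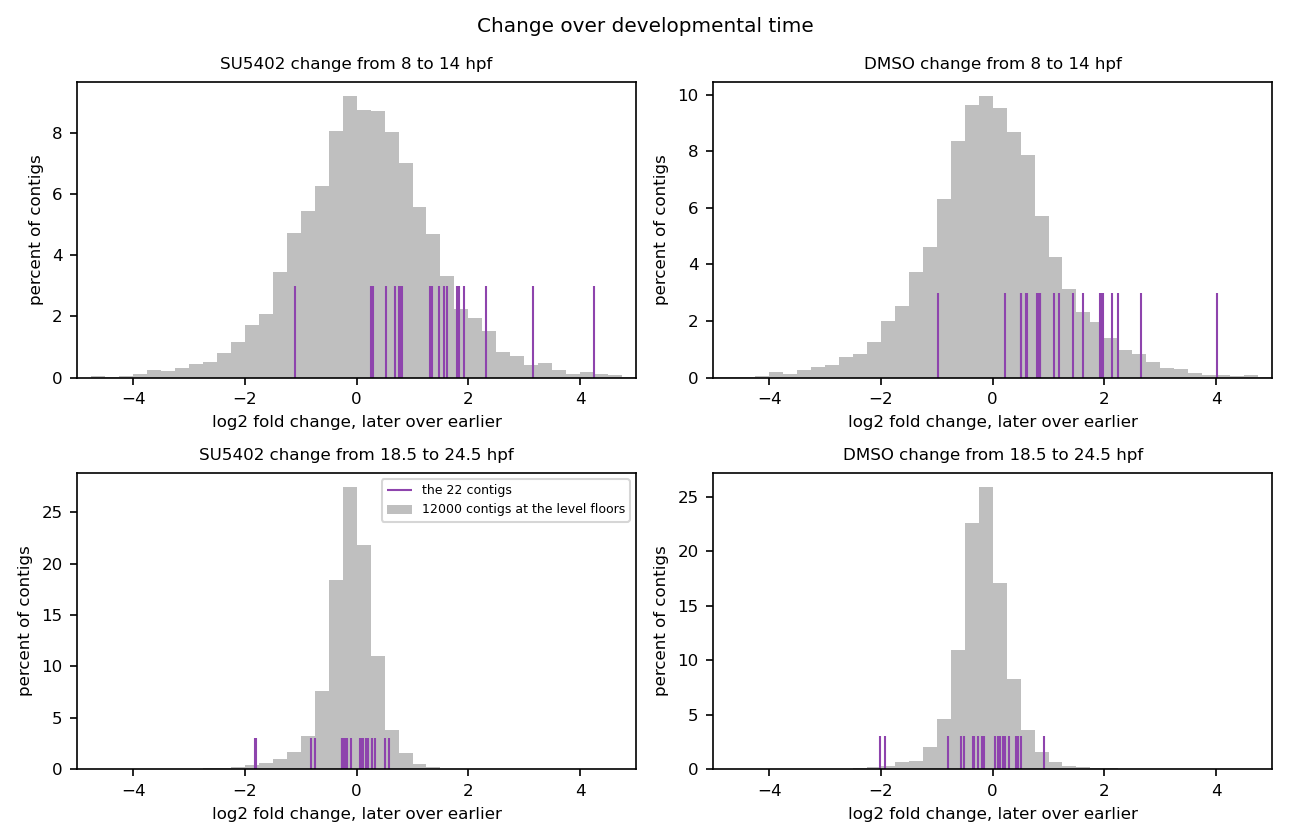
Distribution of the log2 fold change over time for the 12000 contigs at the level floors (grey bars, percent of contigs in bins of 0.25), with a line of fixed height at the value of each of the 22 contigs, SU5402 embryos left and DMSO embryos right. From 8 to 14 hpf 21 of the 22 lines lie above 0 in both kinds of embryos, and from 18.5 to 24.5 hpf they lie on both sides, with ContigAmph19530 at -2.02 and ContigAmph33823 at -1.92 in DMSO embryos.

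By mean level in early DMSO embryos, ContigAmph19530 and ContigAmph33823 came next after ContigAmph14255. Their levels ran close to each other in all 24 libraries. At 8 hpf ContigAmph19530 had 135 and 137 CPM in SU5402 embryos, against 236 and 219 CPM in DMSO embryos. At 11 hpf it had 331 and 351 CPM in SU5402 embryos, against 760 and 758 CPM in DMSO embryos, and at 14 hpf 562 and 521 CPM in SU5402 embryos, against 962 and 1042 CPM in DMSO embryos. ContigAmph33823 had 563 and 539 CPM in SU5402 embryos, against 954 and 1044 CPM in DMSO embryos at 14 hpf. The level of ContigAmph33823 was 0.843 to 1.17 times that of ContigAmph19530 in each of the 24 libraries, and log2 CPM of the pair correlated with r = 0.99 over those libraries. Both could be pieces of 1 transcript or come from 2 genes, which the table does not tell. Among all 231 pairs of the 22 contigs r had a median of 0.64 and ran from -0.33 to 0.99, with 13 pairs below 0. The libraries share stage and series, and the choice also made all 22 lower in early SU5402 libraries, so part of r is built in. Pairs of other contigs were not measured. The highest r, 0.992, joined ContigAmph17584 and ContigAmph1207, the second named after its values were seen, though their level ratio ranged from 0.312 to 1.12.

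As a share of all reads, the 22 contigs together took 0.18% ± 0.0098 in SU5402 embryos and 0.304% ± 0.0009 in DMSO embryos at 8 hpf (SD, n = 2 each). At 11 hpf they took 0.291% ± 0.0262 in SU5402 embryos and 0.628% ± 0.0023 in DMSO embryos, and at 14 hpf 0.445% ± 0.0142 in SU5402 embryos and 0.847% ± 0.052 in DMSO embryos. In the late series the shares were 0.538% ± 0.0138 in SU5402 embryos and 0.571% ± 0.0157 in DMSO embryos at 18.5 hpf. They were 0.438% ± 0.0096 in SU5402 embryos and 0.507% ± 0.0142 in DMSO embryos at 21.5 hpf, and 0.426% ± 0.0166 in SU5402 embryos and 0.468% ± 0.0198 in DMSO embryos at 24.5 hpf. The early gap follows from the choice of contigs. ContigAmph14255 made up 31.2% to 41.7% of the sum in the late libraries, so it weighs heavily in these shares.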

How the data were processed

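The authors deposited raw read counts per contig of a transcriptome assembly, as 1 table of 96094 contigs and 24 libraries. The submitters' processing notes name BWA 0.6.1, and the counting step is not given in the sources used here. Each column was matched to a sample by its title. CPM was the count divided by the column total, times 1000000.

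The 22 contigs, the named contigs and the tests were chosen with earlier results of these data known. Tests were edgeR 4.0.16 quasi-likelihood tests (R 4.3.3), two-sided, with TMM scaling and edgeR's filter on low counts. They were fitted separately to the 12 libraries of each series, on 77193 early and 73087 late contigs, with Benjamini-Hochberg adjustment over all contigs tested and a threshold of 0.05. The scripts were tested on simulated counts with independent libraries, for the SU5402 to DMSO comparisons after 9 h only. The simulation did not include the replicate differences shared among early groups. Fold changes are TMM-scaled while CPM is not. Alternatives included DESeq2 1.42.0, other scalings, no filter, a replicate block, 1 fit of 24 libraries and leaving out each library.

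Contigs were named by rule: the 2 most abundant in early DMSO embryos, the 2 lowest ratios at each early time, the 2 rises and 2 falls with the smallest p over each span, the 2 ratios that fell or rose most between 3 and 9 h of early exposure, and those at the edge of the choice. This named 14 of the 22.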

Additional observations from a re-analysis of the deposited data

How the results depend on the processing

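The number of contigs chosen depended on the settings. A ceiling of 0.5 left 1 and a ceiling of 0.8 took 205, while TMM-scaled CPM gave 44, scaling on the 12000 abundant contigs 6, a narrower late window gave 13 and the window applied to every library ratio 12. Leaving out 1 library gave 20 to 38, with 35 without SU5402 replicate 2 or DMSO replicate 1 at 8 hpf, 37 without SU5402 replicate 2 at 14 hpf and 38 without DMSO replicate 1 at 14 hpf. The early ceiling compares the higher SU5402 library with the lower DMSO library. Leaving out an early library can thus only loosen that ceiling, so the direction of these larger counts was built in. Scaling on the 12000, an alternative chosen after seeing the data, raised the count that rose from 18.5 to 24.5 hpf in DMSO embryos to 11 from 7, and lowered the falls at late 3 h to 5 from 8. The falls from 18.5 to 24.5 hpf in SU5402 embryos, 9, became 4 under that scaling, under library totals and in 1 fit of 24 libraries, and 5 to 6 without 1 library. The fit of 24 libraries gave 0 rises and 3 falls at late 3 h, 6 falls at late 6 h, and 0 rises and 4 falls at late 9 h. The 3 rises at late 9 h became 1 with DESeq2 size factors, 0 with DESeq2's Wald test, and 0 to 1 without 1 library, and the 11 falls there 6 to 11. The cause was not tested where the samples and contigs were the same. The 32 results of named contigs are early differences that chose the contigs, or changes over time with the smallest p. Both kinds were likely to hold under other settings. Of 376 alternatives for these results, 375 kept direction and side of the threshold. The exception was ContigAmph6361 at 14 hpf without SU5402 replicate 2 (log2 fold change -0.83, adjusted p = 0.059).

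Replicate numbers did not pair the libraries in all groups, though early libraries moved together by number. Differences between replicates 1 and 2 correlated with r = 0.52 to 0.77 in 10 early pairs of groups, -0.73 to -0.55 in the 5 pairs with SU5402 at 14 hpf, and -0.25 to 0.09 in 15 late pairs, over 19601 contigs. A replicate block gave 1 rise in place of 3 at late 9 h and left every other count over the 22 within 1.5 times. With the numbers of SU5402 at 14 hpf crossed, a pairing added after seeing the data, 20 of the 22 rose and 1 fell from 8 to 14 hpf in SU5402 and in DMSO embryos, and 13350, 11990 and 13397 of all contigs were called lower at early 3, 6 and 9 h, against 6731, 6903 and 5591 without a block. With 2 libraries in a group, small late differences are not well resolved.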
